A study of Homo sapiens with 4 samples.

Results

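Regulators of G protein signaling (RGS proteins) are represented here by 10 genes, RGS2, RGS3, RGS4, RGS16, RGS10, RGS12, RGS14, RGS17, RGS19 and RGS20, out of 17217 named genes measured in HEK293 cells. They were chosen as a gene list, and their probes were found by matching the RefSeq accession in each probe name to these symbols. The match gave 15 targets, where a target is the set of 3 probes designed on a single accession, and thus 45 probes. RGS3 had 3 targets, RGS10, RGS12 and RGS20 had 2 each, and the other 6 genes had 1. HEK293 is an adenovirus-transformed human embryonic kidney line into which receptors of interest are routinely transfected. All 4 samples were untreated cultures of the unmodified line in serum-containing medium, each on a plate and with an RNA extraction of its own, so there was 1 group and nothing to compare it with. RNA was primed with oligo(dT), labeled with Cy3 and hybridized to NimbleGen arrays with probes 60 bases long. The question put to the data was which regulators the cells hold message for in untreated culture.

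A G protein alpha subunit is active while it holds GTP, and it switches itself off by hydrolyzing that GTP. RGS proteins bind the active alpha subunit and speed up the hydrolysis, so that a receptor's signal ends sooner. The family is divided by sequence. R4 proteins, such as RGS2, RGS3, RGS4 and RGS16, are mostly small and act on the Gi/o and Gq classes. R12 proteins are RGS10, which is little more than an RGS domain, and the large scaffolds RGS12 and RGS14, which also bind Ras proteins and, through a GoLoco motif, inactive Gi alpha. RZ proteins, RGS17, RGS19 and RGS20, carry a string of cysteines near the amino terminus and act on Gz and Gi.

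Detection followed the rule in the study's methods as far as these state it, with 10 of the 11 control genes. The study itself described the RGS proteins of HEK293 cells as limited in diversity. It reported significant HEK293 message for some RGS subtypes, which its text does not name, and for GRK3 to GRK5. The calls below come from the rule as rebuilt here and need not match the study's. The methods average the 3 probes of a target, and here the linear values were averaged before taking log2. The control genes, taken by the study as seminal proteins unlikely to be expressed in these lines, set an array's baseline at their mean plus 2 SD. A gene counted as detected where its mean distance to that baseline was above 0. The baselines of replicates 1 to 4 were 9.47, 9.94, 10.69 and 10.32 log2 units. A distance is a detection margin on the log2 scale. Since probes differ in affinity, the margins of different genes are not relative amounts of message. Of 7 markers fixed for the line 6 were detected, and PAX2 was the exception, at -1.63 ± 0.74 (SD, n = 4). Of 4 endothelial markers 0 were detected, and of 6 blood markers 1 was, the lysosomal gene CD68. Of 4 smooth muscle markers 3 were, and over all named genes the share detected was 52.7%.

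RGS10 was the only listed gene detected. Its mean distance was 1.31 ± 0.75 log2 units (SD, n = 4), above the baseline on all 4 arrays. That made 1 of 10 listed genes by this rule, against 52.7% of all named genes. Counted where all 4 arrays lay above the baseline, it was again 1 of 10 against 45.0%, and by a one-sided limma test with Benjamini-Hochberg adjustment over all genes 1 of 10 against 45.9%. The median distance of the listed genes was -1.34, and that of all named genes was 0.26. RGS2, RGS16 and RGS19 each lay above the baseline on 1 array, and the other 6 genes on none. The count depended on the height of the baseline: it was 0 with 3 SD, where 39.1% of all named genes were detected. The count was 8 of 10 when SPATA5 and SPATA13, the brightest control genes on each array, were left out. Of all named genes 74.0% were then detected, so that the listed genes no longer fell short of the share of all genes. The mean levels of SPATA5 and SPATA13 were 9.97 and 9.72, against at most 7.25 for the other control genes. Without them the mean baseline fell from 10.10 to 7.78 log2 units. Whether HEK293 cells transcribe SPATA5 and SPATA13 was not tested.

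**Figure D1:**
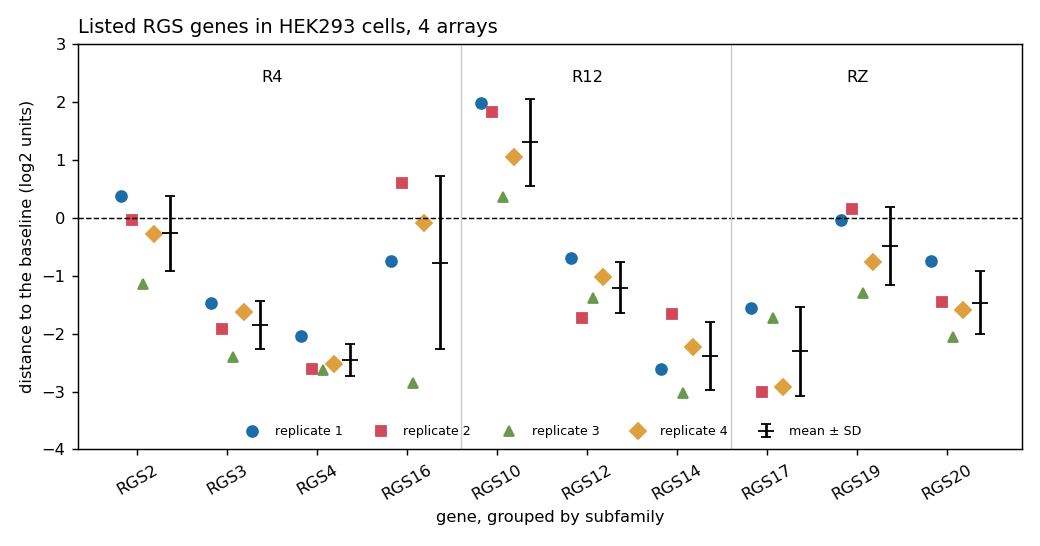
Distance of each listed RGS gene to the array's baseline in log2 units (vertical axis), by gene and subfamily (horizontal axis). Colored points are the 4 replicate arrays, black bars the mean ± SD, and the dashed line the baseline. Only RGS10 has all 4 points above the line, from 0.36 on replicate 3 to 1.99 on replicate 1.

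In the R12 subfamily the 3 genes parted widely. RGS10, a regulator of Gi-class alpha subunits best known from brain and immune cells, stood above the baseline by 1.99, 1.83, 0.36 and 1.04 log2 units on replicates 1 to 4 (limma adjusted p = 0.00026). Its log2 level before subtraction varied less, from 11.06 to 11.77, and replicate 3, the array with the highest baseline, was lowest on both scales. The p of 0.00026 rests on a standard error of 0.351 common to all genes, so the SD of RGS10 itself did not enter it. The adjusted p rose to 0.238 with the mean of log2 probe values (distance 0.44) and to 0.268 with the median of the probes (0.39). With 3 SD the distance was -0.011. RGS12, the largest of the scaffolds, had distances of -0.69, -1.72, -1.38 and -1.03 on replicates 1 to 4. RGS14, which is prominent in hippocampal neurons, had -2.62, -1.66, -3.03 and -2.23. Neither scaffold reached the baseline on any array. Their means were -1.21 ± 0.45 and -2.39 ± 0.58 (SD, n = 4 for each).

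The R4 genes lay below the baseline on average, though not equally far. RGS2, which acts preferentially on Gq, had distances of 0.38, -0.03, -1.15 and -0.27 on replicates 1 to 4, with a mean of -0.27 ± 0.64 (SD, n = 4). It thus lay within its spread of the threshold, and its mean was 0.024 without replicate 3 and 0.17 on replicates 1 and 2 alone. RGS16, an inducible regulator of Gi/o and Gq, had -0.75, 0.60, -2.86 and -0.09, with a mean of -0.77 ± 1.5 (SD, n = 4). Its spread was larger than its distance to the baseline. RGS3, whose longer forms carry a PDZ domain, had -1.47, -1.91, -2.40 and -1.63, a mean of -1.85 ± 0.41 (SD, n = 4). RGS4, abundant in neurons, had -2.05, -2.61, -2.63 and -2.53. Its mean of -2.45 ± 0.27 (SD, n = 4) was the lowest of the 10, and its arrays lay close together.

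None of the RZ genes was detected. RGS19, also called GAIP and first described as a partner of Gi3, had distances of -0.03, 0.16, -1.29 and -0.77, with a mean of -0.48 ± 0.67 (SD, n = 4). It straddled the baseline on replicates 1 and 2 and lay below it on the other arrays. RGS20, known for its action on Gz, had -0.75, -1.45, -2.07 and -1.59, a mean of -1.46 ± 0.54 (SD, n = 4). RGS17, its close relative, had -1.55, -3.01, -1.73 and -2.93, a mean of -2.30 ± 0.77 (SD, n = 4), and its arrays fell into a higher and a lower pair.

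Ordered by mean distance the genes ran RGS10, RGS2, RGS19, RGS16, RGS12, RGS20, RGS3, RGS17, RGS14 and RGS4. RGS10 was first on every array, and its lead over RGS2 of 1.58 ± 0.23 log2 units (SD of the per-array difference, n = 4) exceeded that spread. RGS20 lay above RGS3 on all 4 arrays, by 0.39 ± 0.28 (SD, n = 4), again more than the spread. For the 7 other neighbors in the order, the difference was smaller than its SD for all 7. RGS2 exceeded RGS19 by 0.22 ± 0.31 and RGS17 exceeded RGS14 by 0.08 ± 1.31 (SD, n = 4 for each). RGS16 moved most in the order, from second on replicates 2 and 4 to ninth on replicate 3. The order ranks margins, not amounts of message.

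The 3 probes of a target did not respond alike, and the call on RGS10 rested on 3 of its 6 probes. In its first target the first probe read 12.59, 12.48, 12.50 and 12.69 on replicates 1 to 4, and the second read 12.34, 12.82, 12.37 and 11.88. In its second target the middle probe read 12.51, 12.79, 11.65 and 12.34. The other 3 probes of RGS10 were below the baseline on all 4 arrays, with means from 7.59 to 8.35. By target, the mean distances were 1.83 ± 0.60 and 0.79 ± 0.92 (SD, n = 4 for each), the second with -0.46 on replicate 3. The number that ends a probe's name is not explained in the sources used here. For 2 pairs of probes from the 2 RGS10 targets these numbers differed by the same 51, and in each such pair the probes were alike in brightness, and whether such probes overlap was not tested. Of 1180 genes with 2 targets 34.8% had such a shared difference for 2 or more pairs, RGS20 among them with 522.

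**Figure D2:**
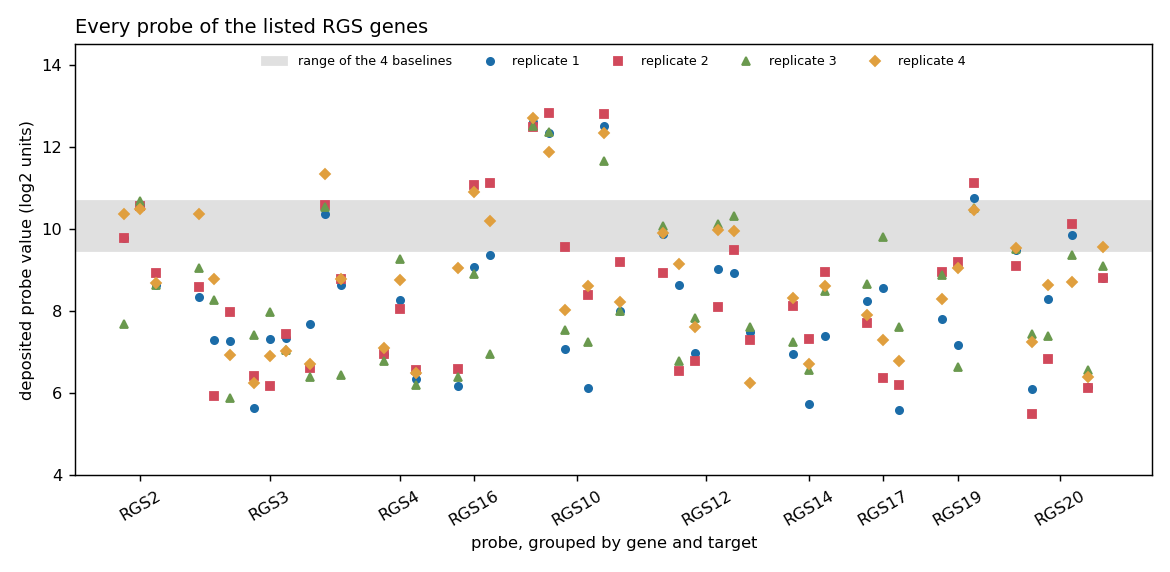
Deposited log2 value of each of the 45 probes of the listed RGS genes (vertical axis), grouped by gene with a small gap between targets (horizontal axis). Symbols are the 4 replicate arrays and the gray band spans the 4 baselines, from 9.47 to 10.69. The 3 RGS10 probes near 12 lie clear above the band on every array, while 32 of the 45 probes lie below their baseline on every array.

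Among the other 9 genes no probe was above the baseline on all 4 arrays. Across all undetected genes 4.31% had such a probe, and across all probes of named genes 38.3% were above it on all 4 arrays. Several came near it in a reproducible way. The second RGS2 probe read 10.55, 10.56, 10.67 and 10.49, a range of 0.18 log2 units, and missed the baseline only on replicate 3. The last RGS19 probe read 10.74, 11.11, 10.50 and 10.45, and the middle probe of the third RGS3 target read 10.36, 10.58, 10.54 and 11.33. Each of these was above the baseline on 3 arrays, and each was the brightest probe of its target. The third RGS3 target accordingly lay closest to the baseline, at -0.64 ± 0.64, and the second farthest, at -3.09 ± 0.43 (SD, n = 4 for each). Within a target the brightest and the dimmest probe differed by a median of 2.51 log2 units for the 15 targets of the listed genes and by 1.44 for all 24000 targets. All 3 probes of RGS4, RGS14 and RGS17 were below the baseline on every array.

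Before subtraction of the baseline RGS16 had levels of 8.72, 10.54, 7.83 and 10.23 on replicates 1 to 4. Replicates 2 and 4 were thus higher than replicates 1 and 3, by 2.11 log2 units on average, and the SD of 1.28 exceeded that of 98.5% of named genes. Its middle probe read 11.07 and 10.90 on replicates 2 and 4 against 9.07 and 8.90 on replicates 1 and 3, and its last probe 11.12 and 10.18 against 9.35 and 6.94. RGS17 ran the other way, with levels of 7.92 and 8.96 on replicates 1 and 3 against 6.93 and 7.39 on replicates 2 and 4. RGS2, RGS14 and RGS19 were also higher on both of replicates 2 and 4, RGS2 by only 0.28 on average. In all, 4 of 10 listed genes were higher on replicates 2 and 4 without overlap, where 18.5% of named genes were, and 1 of 10 was lower, where 22.2% were. On replicates 3 and 4 against 1 and 2, the pairs that share a value distribution, 3 of 10 were higher against 25.0% of named genes, and 1 of 10 was lower against 18.3%. The labels give no difference between these arrays.

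Markers of the line and of smooth muscle also differed between the same arrays. Of the 7 markers of the line, 5 were higher on both of replicates 1 and 3, none on both of replicates 2 and 4. Over all named genes these shares were 22.2% and 18.5%. The mean log2 level of the list was 13.14 and 13.04 on replicates 1 and 3 and 11.82 and 12.04 on replicates 2 and 4. The neurofilament gene NEFM read 13.57 and 13.09 on replicates 1 and 3 and 8.32 and 8.08 on replicates 2 and 4. Its mean difference, replicates 2 and 4 minus 1 and 3, was -5.13. That was the largest in the list, and the next was -1.24 for INA. For smooth muscle, 2 of 4 markers were higher on replicates 1 and 3 and 1 on replicates 2 and 4, with list means of 11.24 and 11.73 against 10.56 and 10.56. By the same difference TAGLN moved most in that list, by -2.88, and ACTA2 went the other way, by 0.58. Of 6 blood markers 2 were higher on replicates 1 and 3 and 1 on replicates 2 and 4. The 4 endothelial markers were below the baseline on every array, and none was higher on either of these pairs. All 4 did rise on replicates 3 and 4, where the list means were 7.12 and 7.24. On replicates 1 and 2 these means were 6.31 and 6.30. The mean of the control genes moved the same way, with 7.84 and 7.70 on replicates 3 and 4 against 7.09 and 7.26. The part of any of these marker shifts in the RGS16 and RGS17 values was not tested. In bulk RNA fewer expressing cells cannot be told apart from less message per cell.

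**Figure D3:**
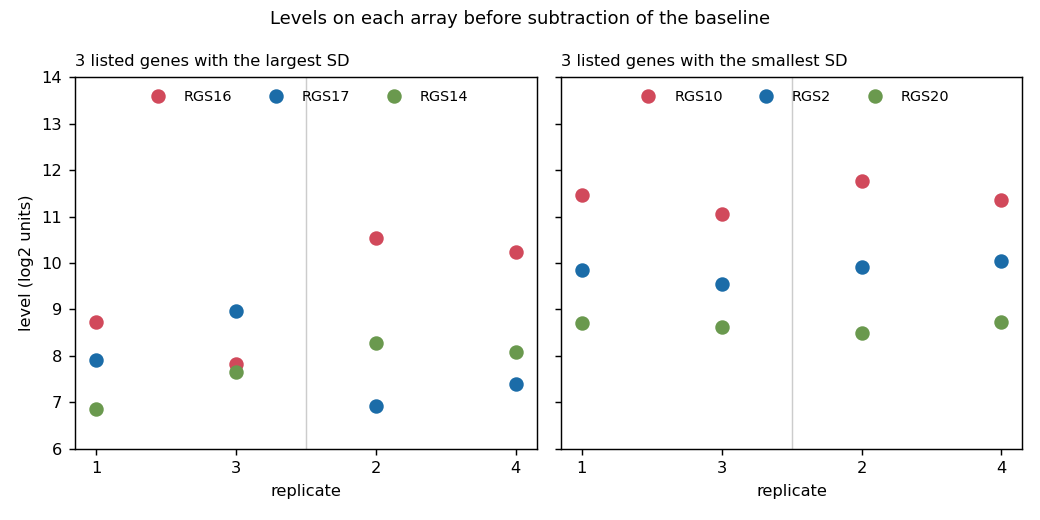
Log2 level before subtraction of the baseline (vertical axis) on each replicate array (horizontal axis, replicates 1 and 3 left of the line, 2 and 4 right) for the 3 listed genes with the largest and the 3 with the smallest SD over arrays. RGS16 runs from 7.83 to 10.54 while RGS20 stays between 8.49 and 8.73.

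At the other end RGS20 had levels of 8.72, 8.49, 8.62 and 8.73, and its SD of 0.11 was among the lowest 2.76% of named genes. The median SD of a listed gene's level was 0.33 log2 units, against 0.42 for all named genes. The SD of its distance, 0.54, was close to the SD of the 4 baselines, 0.52.

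The 9 undetected listed genes were also set against genes likely to be silent. Olfactory receptor genes, most of which are active mainly in olfactory neurons, gave 364 values. The mean level of RGS2 and of RGS19 exceeded 99.7% of them, that of RGS16 99.2%, RGS12 98.9%, RGS20 98.6% and RGS3 98.4%. RGS17, RGS14 and RGS4 exceeded 95.3%, 95.1% and 94.2%. Against the 8 dimmer seminal control genes, RGS14 and RGS17 lay above all 8 on 2 of 4 arrays, and the other 8 listed genes on all 4. Outside the list, RGS7 and RGS9 exceeded 98.4% of the olfactory receptor genes, RGS5 97.8%, RGS11 97.0% and RGS6 95.1%. These shares were in the range of the undetected listed genes, and RGS5 and RGS9 lay above all 8 controls on all 4 arrays. RGS8 exceeded 89.3% and RGS13 78.0%. RGS22 exceeded 61.5%, RGS21 57.1%, RGS18 35.4% and RGS1 7.42%, and each of these last lay above all 8 controls on at most 1 array. With the olfactory receptor genes as controls instead, 7 of the 10 listed genes were detected against 71.4% of all named genes, and limma called 6 of 10 against 66.3%. A low level of message in these genes and a higher background of their probes cannot be told apart here.

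The promoters of the listed genes differed in their content of CpG, the dinucleotide that is dense in the start regions of many widely transcribed genes. For 9 of the 10 genes the 250 bases before the outermost annotated start were taken from RefSeq on GRCh38.p14, which is not the assembly the array was designed on. The windows of 4 genes are printed with each CpG in capitals, on the coding strand: the detected gene, the R4 genes nearest to the baseline, and RGS4, the gene farthest below it.
RGS10, chr10:119542720-119542969, minus strand: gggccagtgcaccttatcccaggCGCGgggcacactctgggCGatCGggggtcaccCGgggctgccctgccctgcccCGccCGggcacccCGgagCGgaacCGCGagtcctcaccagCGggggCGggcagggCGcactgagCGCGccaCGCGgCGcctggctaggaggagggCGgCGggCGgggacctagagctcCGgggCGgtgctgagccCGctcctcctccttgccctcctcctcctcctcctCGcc
RGS2, chr1:192808789-192809038, plus strand: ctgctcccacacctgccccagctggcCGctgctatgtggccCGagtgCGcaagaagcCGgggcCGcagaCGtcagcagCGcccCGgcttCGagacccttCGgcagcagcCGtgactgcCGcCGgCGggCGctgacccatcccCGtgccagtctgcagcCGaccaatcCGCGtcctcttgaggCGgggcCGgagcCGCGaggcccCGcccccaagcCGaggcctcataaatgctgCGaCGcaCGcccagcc
RGS16, chr1:182604390-182604639, minus strand: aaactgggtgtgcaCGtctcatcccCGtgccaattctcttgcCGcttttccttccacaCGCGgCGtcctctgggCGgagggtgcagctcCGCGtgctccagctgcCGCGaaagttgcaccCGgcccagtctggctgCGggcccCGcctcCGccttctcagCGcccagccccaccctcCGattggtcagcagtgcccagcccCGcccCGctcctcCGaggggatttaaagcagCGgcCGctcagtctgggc
RGS4, chr1:163068621-163068870, plus strand: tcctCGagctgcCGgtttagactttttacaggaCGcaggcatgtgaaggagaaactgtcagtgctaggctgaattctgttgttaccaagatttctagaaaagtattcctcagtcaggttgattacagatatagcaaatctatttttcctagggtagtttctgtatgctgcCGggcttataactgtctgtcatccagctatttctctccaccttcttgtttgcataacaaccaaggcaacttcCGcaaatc

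The RGS10 window held 26 CpG in 250 bases, that of RGS2 28, that of RGS16 22 and that of RGS4 5. The median over 12010 measured genes with such a window was 18. Of all those genes 13.2% were detected where the window held 0 to 4 CpG, 45.8% with 5 to 14, 70.9% with 15 to 24 and 72.8% with 25 or more. Windows as dense as that of RGS10 were not confined to it: RGS17 had 42 and RGS19 36, and both genes lay below the baseline. RGS14 had 13, RGS12 12 and RGS3 1. Several genes have more than 1 annotated start, and the counts depended on which was taken. The 2 windows of RGS10 held 3 and 26 CpG and those of RGS19 20 and 36. The 4 windows of RGS4 held 1 to 6, the 5 of RGS3 1 to 29 and the 5 of RGS12 7 to 30. Which start HEK293 cells use was not measured. The Sp1-type GC box GGGCGG, searched on both strands, occurred 5 times for RGS10, 6 for RGS19, 4 for RGS17, 2 for RGS16, 2 for RGS12 and 1 for RGS2, and 57.6% of all windows held at least 1. The core TGACG of the cyclic AMP response element, also searched on both strands, was present once for RGS2 and in no other listed window, and 26.9% of all windows held it. The canonical TATAAA was in none of the 9, against 9.31% of all windows. These are matches of letters and not mapped binding sites.

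The listed genes come from several places in the genome, and some lie in clusters of related genes. In the order of RefSeq genes on chromosome 1, RGS4 is next to RGS5, RGS16 is next to RGS8, and RGS2 closes a run of RGS18, RGS21, RGS1, RGS13 and RGS2. In that run the mean distances were -3.51, -3.37, -3.72 and -3.15 for the first 4 genes and -0.27 for RGS2. The other side of RGS2 is UCHL5, a deubiquitinase of the proteasome, at 3.56 ± 1.44 (SD, n = 4). RGS10 lies between GRK5, a GPCR kinase that itself has an RGS-like domain, and TIAL1, an RNA-binding protein, which stood at 1.84 ± 0.38 and 0.74 ± 0.58 (SD, n = 4 for each), both above the baseline on all 4 arrays. Over the nearest measured coding genes on either side of the 10 members, 8 of 20 were detected, a share of 40% against 52.7% of all named genes.

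The 11 other RGS genes examined gave 0 detected, by the mean rule and by limma, against 52.7% and 45.9% of all named genes. Their median distance of -2.79 was lower than that of the listed genes. Among them RGS7, of the R7 subfamily that pairs with the beta subunit GNB5, lay nearest to the baseline at -1.71 ± 0.91, and RGS1, a regulator of lymphocytes, farthest at -3.72 ± 0.35 (SD, n = 4 for each). RGS5, a marker of pericytes, stood at -1.92 ± 0.55 (SD, n = 4). RGS1, RGS18 and RGS13, all known from blood cells, stood at or below -3.15. RGS21 and RGS22 stood in the same range, at -3.37 and -3.32. At the unadjusted level of 0.05 the same limma test also called 1 of the 10 listed genes and none of these 11, where it called 47.1% of all genes.

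More distant relatives that share an RGS-like domain were counted the same way. Of 15 matched genes 10 were detected, a share of 66.7% against 52.7% of all named genes, and all 10 lay above the baseline on every array. The 5 with the largest distances were ARHGEF1 at 3.80 ± 0.70, SNX14 at 3.24 ± 0.75, AKAP10 at 2.88 ± 0.78, ARHGEF11 at 2.12 ± 0.35 and AXIN1 at 1.86 ± 0.58 (SD, n = 4 for each). ARHGEF1 and ARHGEF11 are guanine nucleotide exchange factors that G12 and G13 activate, SNX14 is a sorting nexin, AKAP10 anchors protein kinase A, and AXIN1 is the scaffold of the beta-catenin destruction complex. The 5 undetected members were the receptor kinases GRK4 at -0.88, GRK7 at -3.27, GRK1 at -3.27 and GRK2 at -3.50, and the sorting nexin SNX13 at -2.17. The GRK2 value rests on 1 target of 3 probes, with levels from 6.46 to 6.79. Whether those probes respond to GRK2 message was not tested. The study reported GRK4 among the kinases with significant message in these cells. This list and those that follow were compared with the listed genes by their counts alone.

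The alpha subunits that RGS proteins act on were partly above the baseline. Among 5 Gi/o genes, GNAI2 stood at 3.77 ± 0.54, GNAZ at 2.05 ± 0.64 and GNAI3 at 1.46 ± 0.56 (SD, n = 4 for each), all above it on every array. GNAI1 lay on it, at -0.02 ± 0.92, and GNAO1, the abundant alpha subunit of neurons, below it at -1.83 ± 0.45 (SD, n = 4 for each). Of 4 Gq-class genes, GNA11 stood at 3.08 ± 0.60 and GNAQ at 2.45 ± 0.76, while GNA14 stood at -1.15 ± 0.65 and GNA15 at -2.08 ± 0.69 (SD, n = 4 for each). Counted together, 5 of 9 of these alpha subunits were detected, a share of 55.6%, near the 52.7% of all named genes. Of the 4 Gs and G12 genes all 4 were, GNAS at 5.03 ± 0.73, GNAL at 3.06 ± 0.87, GNA13 at 2.48 ± 0.89 and GNA12 at 1.22 ± 0.63 (SD, n = 4 for each). None of the listed RGS proteins is best known as a regulator of those classes. For GNAZ, the alpha subunit of Gz, the RZ regulators lay at -0.48 for RGS19, -1.46 for RGS20 and -2.30 for RGS17.

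**Figure D4:**
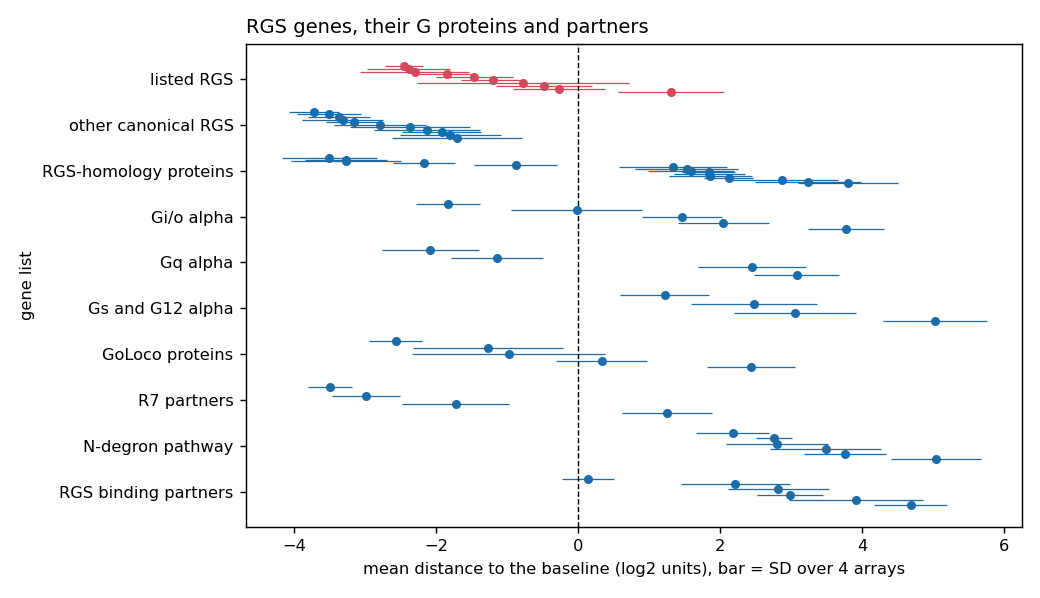
Mean distance to the baseline in log2 units (horizontal axis) for each gene of the listed RGS genes (red) and of 9 lists of relatives, G proteins and partners (blue), by list (vertical axis). Bars are the SD over 4 arrays and the dashed line is the baseline. The 2 RGS lists sit left of the line but for RGS10, whereas the N-degron and binding partner lists sit right of it.

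The message of the proteins that break down some RGS proteins was above the baseline. RGS4, RGS5 and RGS16 are degraded through the N-degron pathway, which removes their first methionine, oxidizes the exposed cysteine, attaches arginine and then ubiquitin. All 6 genes chosen for these steps were above the baseline on all 4 arrays, where 45.0% of all named genes were. The aminopeptidases METAP1 and METAP2 stood at 3.49 ± 0.78 and 5.04 ± 0.64, the cysteine dioxygenase ADO at 2.80 ± 0.72, the arginyl transferase ATE1 at 2.76 ± 0.25, and the ligases UBR1 and UBR2 at 2.18 ± 0.52 and 3.76 ± 0.57 (SD, n = 4 for each). Their substrates RGS4, RGS5 and RGS16 were undetected on average. The arrays measure message, and protein stability was not measured.

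Of 6 binding partners all 6 were detected by the mean rule and 5 on every array, against 52.7% and 45.0% of all named genes. GIPC1, a PDZ protein that binds RGS19, stood at 2.22 ± 0.77, and HINT1, which binds RGS17, at 3.91 ± 0.94 (SD, n = 4 for each). PPP1R9B, or spinophilin, a scaffold that brings RGS proteins to receptors, stood at 2.98 ± 0.47 (SD, n = 4). HRAS, a small GTPase that the scaffolds RGS12 and RGS14 engage, stood at 2.82 ± 0.71 (SD, n = 4). FBXO44, the adaptor of a ubiquitin ligase for RGS2, was within its spread of the baseline at 0.14 ± 0.37 (SD, n = 4, limma adjusted p = 0.681).

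Other GoLoco proteins gave 2 of 5 detected, a share of 40% against 52.7% of all named genes. GPSM2, which orients the mitotic spindle through Gi alpha, stood at 2.43 ± 0.62, and GPSM3 at 0.33 ± 0.64 with a limma adjusted p of 0.347 (SD, n = 4 for each). GPSM1 at -0.98 ± 1.36, RAP1GAP at -1.27 ± 1.06 and PCP2 at -2.57 ± 0.37 were below the baseline (SD, n = 4 for each). Of 4 partners of the R7 subfamily 1 was detected, a share of 25%. It was the beta subunit GNB5, at 1.26 ± 0.64 (SD, n = 4). The membrane anchors RGS7BP and RGS9BP stood at -2.99 ± 0.48 and -1.73 ± 0.76, and the orphan receptor GPR158 at -3.50 ± 0.31 (SD, n = 4 for each). Over all 9 lists 34 of 60 genes were detected, a share of 56.7%, near that of all named genes.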

How the data were processed

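The table the authors deposited holds a log2 intensity for each of 71998 probes on each array. Their methods name NimbleScan extraction and a log2 step, and the submitters' processing notes name RMA. Replicates 1 and 2 shared a value distribution, as did replicates 3 and 4. Spot backgrounds were not analysed here, and the number of arrays limits the precision. A RefSeq table of GRCh38.p14, matched by unversioned accession, named 19125 of 24000 targets. A target was log2 of the mean linear probe value, and a gene was the mean of its targets. Of 11 control genes 10 were matched. Distances were tested against 0 with limma 3.58 in R 4.3, one-sided, with Benjamini-Hochberg adjustment at 0.05. The prior degrees of freedom were infinite, so all genes shared a standard error of 0.351, and an array's baseline moves all its genes together. With 4 arrays the smallest p of an exact one-sided test that flips signs is 0.0625. The fit was also run on simulated data. There the shift shared by all genes of an array was smaller than the SD of the baselines, 0.52. That run thus cannot show the error rate for the distances here. Members and lists were chosen with earlier results of these data known. Named were the members, the G alpha genes, all of lists of 6 or fewer (1 binding partner is counted but not reported here), and up to 5 detected genes of larger lists. All 11 other RGS genes examined were named after their values were seen. So were the undetected RGS-homology genes, the markers PAX2, NEFM, INA, TAGLN, ACTA2 and CD68, and the chromosomal neighbors. SNX25 and PYY2 were not matched. Alternatives changed the baseline, the controls, the summary of probes and targets, the normalization between arrays, the arrays used and the limma prior.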

Additional observations from a re-analysis of the deposited data

Results flagged for a closer look

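Of 65 sets of 4 array values looked at for the listed genes (10 levels, 10 distances and 45 probes), 5 had an array whose gap to the next, divided by the range, passed Dixon's 95% critical value. About 1 set in 20 does so by chance. RGS4 had a distance of -2.05 on replicate 1 while the other arrays lay between -2.63 and -2.53 (0.832), and its level before subtraction did not pass. The last probe of the third RGS3 target read 6.44 on replicate 3 and 8.63 to 8.78 on the others (0.935). The first RGS16 probe read 9.04 on replicate 4 and 6.17 to 6.58 on the others (0.858). The first probe of the first RGS12 target read 8.93 on replicate 2 and 9.88 to 10.06 on the others (0.837), and that of RGS20 read 9.11 on replicate 2 and 9.48 to 9.54 on the others (0.862).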

How the results depend on the processing

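No paired analysis was possible because the arrays form 1 group. The count of 1 detected RGS gene (and of 1 called by limma) changed to 5 (3) with 1 SD, 0 (0) with 3 SD, 7 (6) with olfactory receptor controls, 8 (6) without SPATA5 and SPATA13, and 6 (4) with the median and MAD. Under these settings 64.3%, 39.1%, 71.4%, 74.0% and 67.7% of all named genes were detected (58.9%, 28.6%, 66.3%, 68.6% and 62.3% by limma), against 52.7% (45.9%) as reported, so the shortfall of the listed genes was not seen with the olfactory receptor controls or without SPATA5 and SPATA13 by the mean rule. The limma count was also 0 with the mean of log2 probe values, with the median of the probes, on replicates 3 and 4 alone, and on replicates 1 and 3 alone, in each case through RGS10. On replicates 1 and 2 alone 3 genes were detected, and on replicates 2 and 4 alone 2. Leaving out each replicate gave 1 to 2 detected genes, with RGS2 running from -0.485 without replicate 1 to 0.024 without replicate 3, where it was added, and 1 limma call throughout. Replicates 1 and 3 alone and 2 and 4 alone were chosen after the data had been seen.

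The distance of RGS10 turned to -0.011 with 3 SD. With 1 SD the distances above 0 were those of RGS2 (1.05), RGS19 (0.83), RGS16 (0.54) and RGS12 (0.11). With the median and MAD they were RGS2 (1.44), RGS19 (1.22), RGS16 (0.93), RGS12 (0.50) and RGS20 (0.24). With olfactory receptor controls they were RGS2 (1.82), RGS19 (1.60), RGS16 (1.31), RGS12 (0.88), RGS20 (0.62) and RGS3 (0.23). Without SPATA5 and SPATA13 they were RGS2 (2.06), RGS19 (1.84), RGS16 (1.55), RGS12 (1.12), RGS20 (0.86), RGS3 (0.47) and RGS17 (0.022). On replicates 1 and 2 alone RGS2 (0.17) and RGS19 (0.064) changed sign, and on replicates 2 and 4 alone RGS16 (0.26) did. The lower baselines explain these signs by construction, and for the others the cause was not tested. RGS14 and RGS4 stayed below the baseline under every alternative run. The adjusted p of RGS10 where the call was lost with its distance above 0 was 0.238, 0.268, 0.0795 (replicates 3 and 4) and 0.0771 (replicates 1 and 3). The count of 34 over the neighboring lists stayed within 1.5 times under every alternative run.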
